A study of Mus musculus with 12 samples.

Results

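The genes described here encode inflammatory cytokines and chemokines, the NF-kB factors that switch many of them on, and the inhibitors that switch NF-kB off again. The list holds 40 mouse genes, chosen by name, and each was read by its brightest probe set, taken as the mean of the 12 arrays. Of these, 39 had a probe set that names 1 gene, out of 18193 genes measured in this way, and Nfkb1 was not analysed here. They fall by role into 14 chemokines, 8 interleukins and gp130 cytokines, 3 colony stimulating factors, 5 genes around TNF and prostaglandin synthesis, 6 measured NF-kB subunits and inhibitors, and 3 adhesion and survival genes. The cells were C3H10T1/2, a mouse mesenchymal cell line that can be driven towards cartilage, bone and fat, measured on expression arrays as log2 values. One group received siRNA-140, a double-stranded mimic of miR-140 (a microRNA best known from cartilage), and was set against cells given siRNA-96, which carries miR-96. Another group received LNA-antimicroRNA-140 (anti-miR-140), a locked nucleic acid meant to block the cells' own miR-140, and was set against cells given LNA-antimicroRNA-449 (anti-miR-449). Each of the 4 groups had 3 arrays. All cells were of 1 line with no other treatment named, and both references act on another microRNA, so every difference mixes what miR-140 does with what miR-96 or miR-449 does. Nothing in the labels says that replicates came from separate cultures, and the p-values then rest on a spread that may be technical. RNA came from whole cultures, in which fewer expressing cells and less RNA per cell cannot be told apart.

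In resting cells NF-kB dimers such as that of Rela are held in the cytoplasm by inhibitors of the IκB family, among them the product of Nfkbia. Signals from TNF, interleukin-1 or double-stranded RNA destroy these inhibitors, NF-kB enters the nucleus, and it induces chemokines, cytokines and, as feedback, Nfkbia and Tnfaip3. Fibroblast-like and mesenchymal cells take part in inflammation in this way, by drawing in leukocytes with chemokines and by presenting adhesion molecules. Cxcl10, Ccl5 and Il15 also respond to interferon and to the interferon regulatory factors that double-stranded RNA activates.

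The promoters of 28 of the 39 measured genes were in the RefSeq table (GRCm38.p6), as windows of 300 bases that run from 250 bases before the start of the gene to 50 after it. The NF-kB consensus, searched on both strands, was found in 15 of their 35 windows (42.9%) and in 8.46% of all 32851 windows of that length. The core of the interferon-stimulated response element (GAAANNGAAA), searched on both strands, was found in 1 member window (2.86%) and in 3.44% of all windows. The promoters of some genes that moved in the siRNA arrays are shown, 5′ to 3′ along the gene, with the NF-kB matches and, in Cxcl10 alone among these, the match to the interferon element in capitals.
Cxcl10: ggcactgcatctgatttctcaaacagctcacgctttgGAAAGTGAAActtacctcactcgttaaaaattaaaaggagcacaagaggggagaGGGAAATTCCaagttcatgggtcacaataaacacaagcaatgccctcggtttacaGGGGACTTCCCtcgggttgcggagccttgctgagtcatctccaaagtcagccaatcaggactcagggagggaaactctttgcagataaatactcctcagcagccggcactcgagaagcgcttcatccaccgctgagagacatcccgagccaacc
Tnfaip3: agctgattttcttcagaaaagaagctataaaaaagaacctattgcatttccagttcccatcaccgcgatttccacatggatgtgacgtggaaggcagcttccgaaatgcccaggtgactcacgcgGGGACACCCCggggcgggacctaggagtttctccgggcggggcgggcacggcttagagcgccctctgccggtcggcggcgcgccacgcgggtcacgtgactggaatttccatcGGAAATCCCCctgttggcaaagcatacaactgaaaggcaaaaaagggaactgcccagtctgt
Nfkbia: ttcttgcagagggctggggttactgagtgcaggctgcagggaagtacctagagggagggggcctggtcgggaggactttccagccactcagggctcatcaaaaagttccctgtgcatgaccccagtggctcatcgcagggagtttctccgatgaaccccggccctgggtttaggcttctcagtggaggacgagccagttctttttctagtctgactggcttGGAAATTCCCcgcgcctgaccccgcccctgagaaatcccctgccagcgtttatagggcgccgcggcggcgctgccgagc
Tnfaip2: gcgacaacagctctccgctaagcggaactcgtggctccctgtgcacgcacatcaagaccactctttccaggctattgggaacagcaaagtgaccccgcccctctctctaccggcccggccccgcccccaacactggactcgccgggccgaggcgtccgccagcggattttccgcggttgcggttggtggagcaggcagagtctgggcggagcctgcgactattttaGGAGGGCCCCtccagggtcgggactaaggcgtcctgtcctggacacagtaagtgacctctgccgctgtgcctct
Ptgs2: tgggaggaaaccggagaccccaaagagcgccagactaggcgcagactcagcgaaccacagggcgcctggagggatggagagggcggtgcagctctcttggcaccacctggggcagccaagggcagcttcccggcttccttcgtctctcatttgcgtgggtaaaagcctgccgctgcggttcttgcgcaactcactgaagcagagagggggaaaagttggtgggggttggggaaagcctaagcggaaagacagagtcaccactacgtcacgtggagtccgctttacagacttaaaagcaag
The Cxcl10 window (chr5:92348840-92349139, minus strand) holds the interferon element with its first base at -213 from the start of the gene and NF-kB matches at -159, -104 and -103, of which the last overlap. Tnfaip3 has 2 windows, and the one shown (chr10:19015361-19015660, minus strand) holds NF-kB matches at -125 and -12, while the other holds none. The match lies at -29 in Nfkbia (chr12:55492598-55492897, minus strand) and at -24 in Tnfaip2 (chr12:111442411-111442710, plus strand). The Ptgs2 window (chr1:150099781-150100080, plus strand) holds neither motif in these letters. Of genes that moved but are not shown, the windows of Ccl9 and Csf1 hold an NF-kB match, and those of Cx3cl1 and Tnf hold none. Ccl5, Il15 and Vcam1, which also moved, had no window and were not searched. A match describes the letters of a window and was not measured as a binding site.

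Results are given with and without 2 siRNA arrays, siRNA-140 replicate 3 and siRNA-96 replicate 1. siRNA-140 replicate 3 correlated best with siRNA-96 replicate 2 (r = 0.9976 over probe sets), and siRNA-96 replicate 1 correlated best with siRNA-140 replicate 1 (r = 0.9952). In turn, siRNA-140 replicate 1 was nearest to siRNA-96 replicate 1, and siRNA-96 replicates 2 and 3 were nearest to siRNA-140 replicate 3. Each anti-miR-449 array was also nearest to an anti-miR-140 array, so a best match in the other group does not by itself single out an array. Whether the labels of siRNA-140 replicate 3 and siRNA-96 replicate 1 were exchanged was not tested, and every as-labelled siRNA value rests on those labels. Array medians were 3.95 to 4.02 in the siRNA arrays and 4.32 to 4.38 in the anti-miR arrays, so levels are compared within each experiment. The 18S rRNA control probe sets averaged 10.5 and 7.86 in replicates 1 and 3 of siRNA-96, with 5.4 to 6.73 elsewhere among the siRNA arrays, and their part in the results was not tested. In the anti-miR arrays they averaged 10.2 in anti-miR-449 replicate 1 and 5.92 to 6.75 elsewhere. All 10 listed mesenchymal genes were measured, with a mean level of 8.92 to 9.27 in the siRNA arrays and 9.68 to 9.77 in the anti-miR arrays, although Lum and Thy1 lay below the array medians. The 11 measured leukocyte markers averaged 3.97 to 4.10 and 4.15 to 4.23 in the same arrays, close to the array medians. That average mixes Cd14 (6.59 to 7.47), Csf1r, Cd68, Lyz2 and Cd3e, above the medians in every array, with the others, which lay below. Without the 2 arrays, limma called the mesenchymal genes Col3a1 (-1.12) and Pdgfra (-0.45), the leukocyte markers Csf1r (-0.52) and Itgam (0.47), and the endothelial marker Tek (0.60). Col3a1 split the arrays as Ccl5 and Tnfaip3 did, with 11.40, 11.43 and 12.52 in the siRNA-140 arrays, against 11.12, 12.54 and 12.53 in the siRNA-96 arrays, replicates in order. The part of these markers in the results was not tested.

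**Figure D1:**
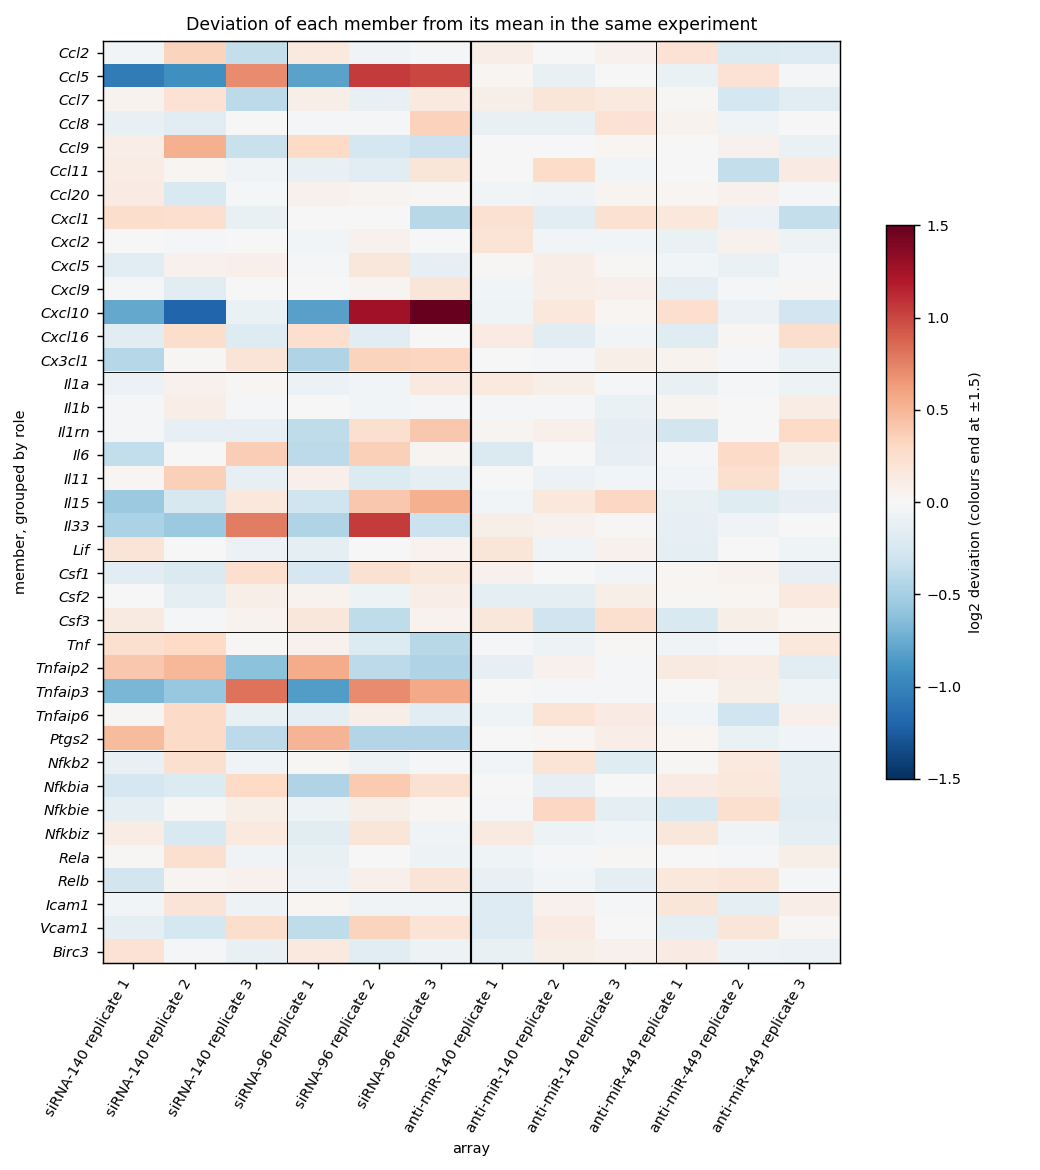
Deviation of each of the 39 measured genes (down the page, grouped by role) from its own mean over the 6 arrays of the same experiment, in log2 units, for the 12 arrays (across). siRNA-140 replicate 3 has the colours of siRNA-96 replicates 2 and 3 in Ccl5, Tnfaip3 and Tnfaip2, siRNA-96 replicate 1 has those of siRNA-140 replicates 1 and 2, and the anti-miR arrays are pale throughout.

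With the groups as labelled, none of the 39 genes separated siRNA-140 from siRNA-96. Cxcl10, a chemokine for T cells, averaged 3.58 ± 0.55 in siRNA-140 arrays and 4.95 ± 1.31 in siRNA-96 arrays (SD, n = 3 each), a log2 difference of -1.36 ± 0.46 (SE; 95% interval -2.36 to -0.37; limma adjusted p = 0.88). Tnf, the gene of tumour necrosis factor, averaged 4.19 ± 0.15 in siRNA-140 arrays and 3.81 ± 0.24 in siRNA-96 arrays (SD, n = 3 each), a difference of 0.38 ± 0.12 (95% interval 0.11 to 0.64; limma adjusted p = 0.88). These were the only 2 of the 39 with an unadjusted limma p under 0.05 (5.13%), against 4.9% of all genes. limma called 0 of the 39 after adjustment over 45037 probe sets, as it did 0.0% of all genes. In 0 of the 39 did the groups of 3 fail to overlap, against 5.8% of all genes. The median difference was -0.01 over the 39 genes, with a range of -1.36 to 0.38, and 0.03 over all genes.

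The spread inside the labelled groups was wide for a few of the genes. Over the 6 siRNA arrays, 6 of the 39 ranged over at least 1 log2 unit: Cxcl10 (2.79), Ccl5 (2.10), Tnfaip3 (1.65), Il33 (1.61), Tnfaip2 (1.17) and Il15 (1.09). Over the 6 anti-miR arrays none of the 39 did, and the median range was 0.32, with 0.27 over all genes. In the siRNA arrays the median range was 0.51 for the 39 genes and 0.42 for all genes. The share of all genes that ranged over at least 1 log2 unit was not counted, so the 6 have no background to be set against.

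Once these 2 siRNA arrays were left out, 12 of the 39 genes differed between siRNA-140 and siRNA-96 in the fit of the other 10 arrays. Cxcl10, Ccl5, Tnfaip3, Il15, Nfkbia, Cx3cl1, Vcam1 and Csf1 fell, and Tnfaip2, Ptgs2, Ccl9 and Tnf rose. That is 30.8% of the 39, against 11.1% of all genes; the 8 that fell are 20.5%, against 4.85%, and the 4 that rose are 10.3%, against 6.27%. Fitted on the 4 remaining siRNA arrays alone, 6 of the 12 were called as well, so that 15.4% were called in both fits, against 4.82% of all genes. These 6 were Cxcl10, Ccl5, Tnfaip3 and Il15 on the lower side (10.3%, against 2.38%) and Tnfaip2 and Ptgs2 on the higher side (5.13%, against 2.44%). The arrays left out, siRNA-140 replicate 3 and siRNA-96 replicate 1, were picked from the same values, and each siRNA group then has 2 arrays. The differences rest on those 4 arrays, and their p-values are not independent support. In the 10-array fit the spread behind the p-values comes from the 6 anti-miR arrays as well.

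**Figure D2:**
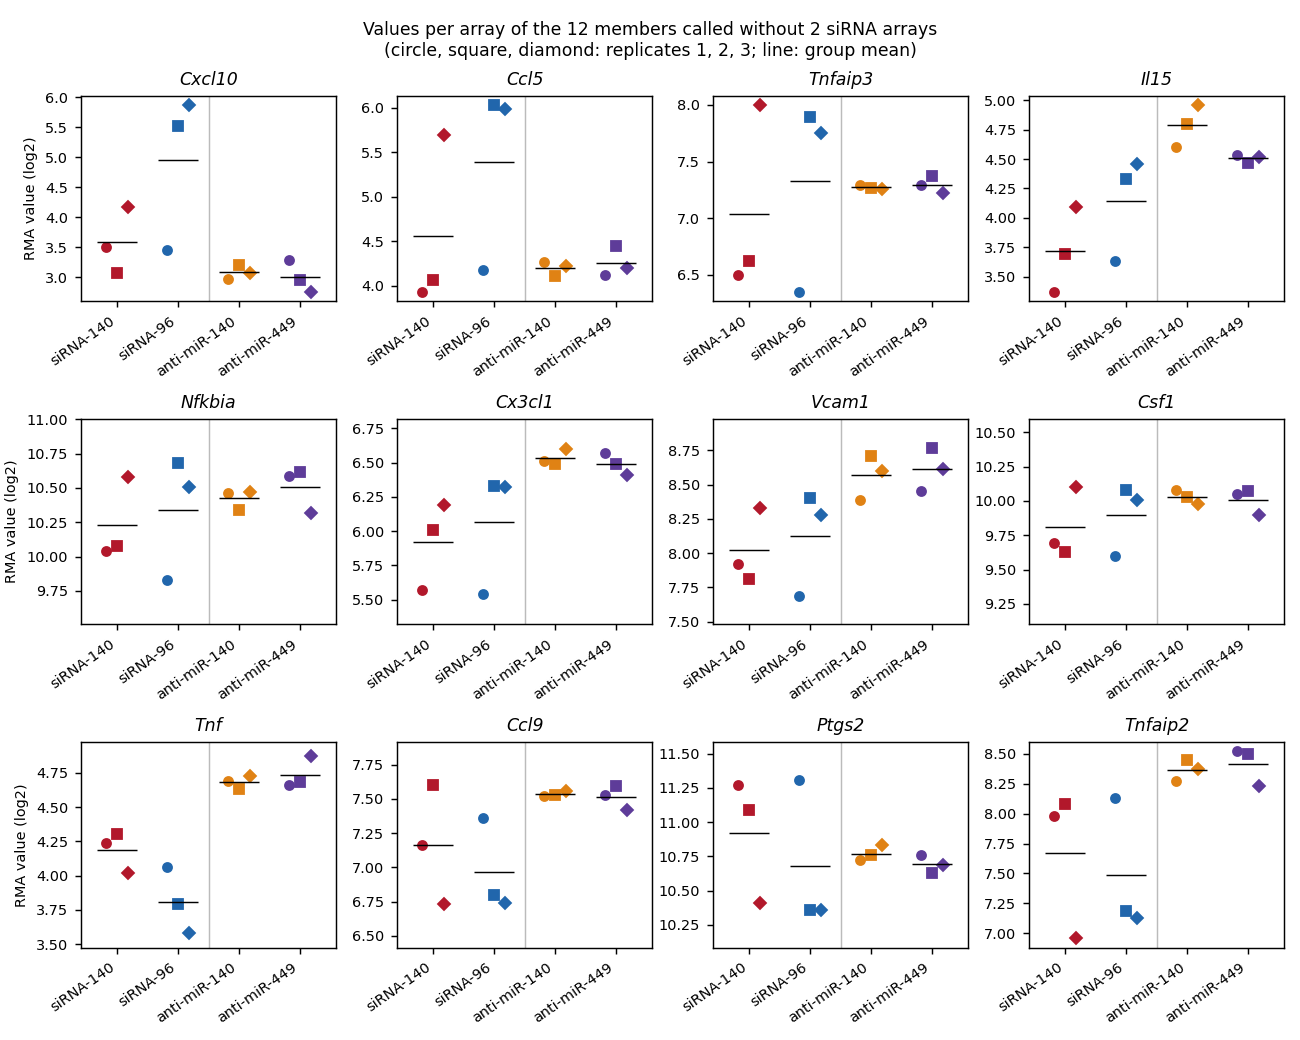
RMA log2 value (vertical) in each of the 12 arrays for the 12 genes called without 2 siRNA arrays, with the 4 groups across, a line at each group mean and a symbol for each replicate number. The diamond of siRNA-140 lies with the square and diamond of siRNA-96 in panels such as Ccl5, Tnfaip3 and Ptgs2, and between them and the other siRNA-140 arrays in Cxcl10 and Tnf.

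Among the 14 chemokines, 3 fell and 1 rose without the 2 arrays. Values per array are given in the order of replicates 1, 2 and 3. Cxcl10 read 3.50, 3.08 and 4.17 with siRNA-140, against 3.45, 5.52 and 5.87 with siRNA-96. Only siRNA-96 replicates 2 and 3 were high, siRNA-140 replicate 3 lay between the low and high arrays, and siRNA-96 replicate 1 lay with siRNA-140 replicates 1 and 2. The difference without the 2 arrays was -2.41 ± 0.18 (95% interval -2.80 to -2.01; limma adjusted p = 4.17e-06), and without siRNA-96 replicate 1 alone it was -2.11 (adjusted p = 0.00616). Cxcl10 was the only one of the 39 called when a single array was left out. Ccl5, which draws in T cells and monocytes, read 3.93, 4.06 and 5.69 with siRNA-140, against 4.17, 6.03 and 5.98 with siRNA-96. The high arrays were siRNA-140 replicate 3 and siRNA-96 replicates 2 and 3, and the labelled groups overlapped. Ccl5 differed without the 2 arrays by -2.01 ± 0.12 (95% interval -2.27 to -1.75; limma adjusted p = 6.06e-07), and as labelled by -0.83.

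Cx3cl1, the membrane-bound chemokine fractalkine, read 5.57, 6.01 and 6.19 with siRNA-140, against 5.54, 6.33 and 6.32 with siRNA-96. The labelled groups overlapped, and the difference without the 2 arrays was -0.54 ± 0.13 (limma adjusted p = 0.0241), with 0.136 in the 4-array fit. Its other probe sets differed by -0.12, -0.10 and 0.08 and were not called. Ccl9, a mouse chemokine for myeloid cells, read 7.16, 7.60 and 6.73 with siRNA-140, against 7.36, 6.80 and 6.74 with siRNA-96. Here siRNA-140 replicate 3 was the lowest array, and without the 2 arrays Ccl9 differed by 0.61 ± 0.13 (limma adjusted p = 0.0112). A further probe set of Ccl9 was called too, at 0.75.

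The other 10 chemokines were not called. Cxcl1, a neutrophil chemokine, read 7.40, 7.38 and 7.02 with siRNA-140, against 7.14, 7.13 and 6.72 with siRNA-96, and differed by 0.47 without the 2 arrays (limma adjusted p = 0.156). Ccl8, a monocyte chemokine, differed by -0.30, and Cxcl9, an interferon-gamma-induced relative of Cxcl10, by -0.21. The monocyte chemokines Ccl2 and Ccl7 differed by 0.19 and 0.12. Ccl20, Cxcl5, Cxcl2, Ccl11 and Cxcl16 lay between -0.08 and 0.14. Cxcl2, a close relative of Cxcl1, had the narrowest range of all 39 over the siRNA arrays (0.10), at a mean of 1.89 in both groups, below the array medians.

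Of the 8 interleukins and gp130 cytokines, 1 fell. Il15, which sustains natural killer cells and memory T cells, read 3.37, 3.69 and 4.09 with siRNA-140, against 3.63, 4.33 and 4.46 with siRNA-96. The 3 highest arrays were siRNA-96 replicates 2 and 3 and siRNA-140 replicate 3. The Il15 difference without the 2 arrays was -0.87 ± 0.14 (limma adjusted p = 0.00138), and as labelled -0.42. Il33, a nuclear cytokine released from damaged cells, read 3.44, 3.36 and 4.68 with siRNA-140, against 3.46, 4.97 and 3.59 with siRNA-96. It was high in siRNA-140 replicate 3 and siRNA-96 replicate 2 only, and the difference without the 2 arrays, -0.88 ± 0.29, was not called (limma adjusted p = 0.0855).

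Il6, the signature gp130 cytokine, read 4.43, 4.80 and 5.17 with siRNA-140, against 4.40, 5.15 and 4.84 with siRNA-96. Its difference without the 2 arrays was -0.38 (95% interval -0.71 to -0.05; limma adjusted p = 0.174). Il1rn, the receptor antagonist that blocks interleukin-1, differed by -0.40 on its brightest probe set (adjusted p = 0.17), and by -0.42 and -0.37 on its others. Il11, a further gp130 cytokine, differed by 0.36 (limma adjusted p = 0.132). Il1a, Il1b and Lif differed by -0.06, 0.07 and 0.08, and Il1a and Il1b, the agonists of the interleukin-1 receptor, ranged over only 0.22 and 0.14 in the siRNA arrays.

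Csf1, the growth factor of macrophages, fell, and it was the only one of the 3 colony stimulating factors called. It read 9.69, 9.63 and 10.10 with siRNA-140, against 9.60, 10.08 and 10.01 with siRNA-96, far above the array medians. Csf1 differed without the 2 arrays by -0.39 ± 0.11 (limma adjusted p = 0.0365), with 0.207 in the 4-array fit, and its other probe sets were not called. Csf2 and Csf3, which act on granulocytes and macrophages, differed by -0.10 and 0.22 and were not called.

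The genes around TNF moved both ways, with 1 lower and 3 higher of 5. Tnfaip3, which encodes the NF-kB feedback inhibitor A20, read 6.50, 6.62 and 8.0 with siRNA-140, against 6.35, 7.89 and 7.75 with siRNA-96. The 3 high and 3 low arrays lay more than a log2 unit apart, with the labels mixed in each. Tnfaip3 differed without the 2 arrays by -1.26 ± 0.11 (95% interval -1.49 to -1.03; limma adjusted p = 8.52e-06), and a further probe set differed by -0.78 (limma adjusted p = 0.000622). Tnfaip2, a TNF-induced gene of membrane protrusions, read 7.98, 8.08 and 6.96 with siRNA-140, against 8.13, 7.19 and 7.13 with siRNA-96. The same 3 arrays that were high in Tnfaip3 were low here, and without the 2 arrays the difference was 0.87 ± 0.12 (limma adjusted p = 0.000544). Its other probe sets differed by 0.52, which was called, and by 0.03, which was not.

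Ptgs2, which encodes the inducible cyclooxygenase of prostaglandin synthesis, read 11.27, 11.09 and 10.41 with siRNA-140, against 11.31, 10.36 and 10.36 with siRNA-96. Again siRNA-140 replicate 3 and siRNA-96 replicates 2 and 3 stood together, on the low side. Ptgs2 differed without the 2 arrays by 0.82 ± 0.11 (95% interval 0.59 to 1.05; limma adjusted p = 0.000315), and its further probe set by 1.04. Tnf read 4.24, 4.30 and 4.02 with siRNA-140, against 4.06, 3.79 and 3.58 with siRNA-96. The labelled groups overlapped only through siRNA-140 replicate 3 and siRNA-96 replicate 1, at a level close to the array medians. Without those 2 arrays Tnf differed by 0.59 ± 0.12 (limma adjusted p = 0.00598), with 0.058 in the 4-array fit. Tnfaip6, a hyaluronan-binding protein induced by TNF, differed by 0.19 and was not called.

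**Figure D3:**
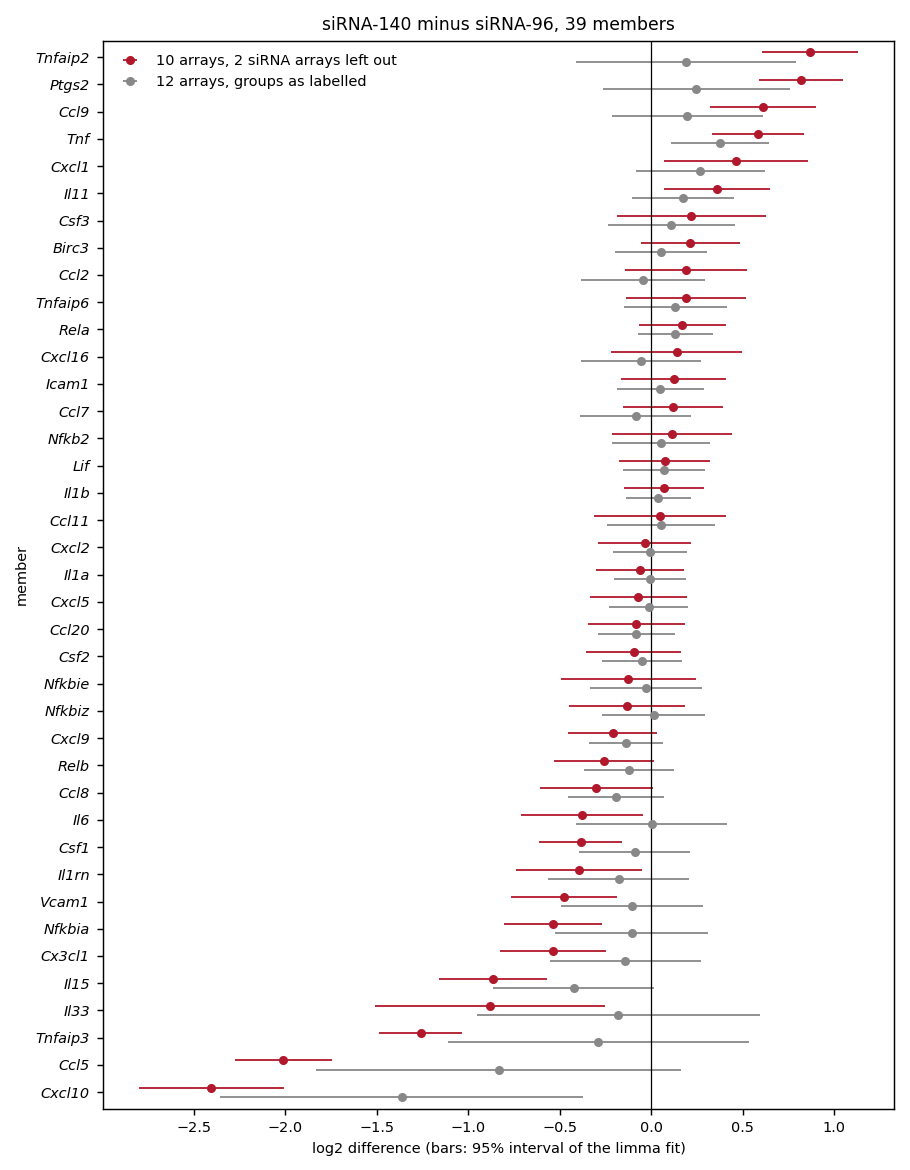
Log2 difference of siRNA-140 minus siRNA-96 (horizontal) for the 39 genes (down the page), with 95% intervals of the limma fit, without 2 siRNA arrays (red) and with the groups as labelled (grey). Red points run from -2.41 (Cxcl10) to 0.87 (Tnfaip2), and grey intervals are widest for Ccl5, Cxcl10, Tnfaip3 and Il33.

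Of the 6 measured NF-kB subunits and inhibitors, 1 fell. Nfkbia, the gene of IκBα, read 10.04, 10.08 and 10.58 with siRNA-140, against 9.83, 10.68 and 10.51 with siRNA-96. siRNA-140 replicate 3 read with siRNA-96 replicates 2 and 3, on the high side. Leaving out the 2 arrays gave a difference of -0.54 ± 0.12 (limma adjusted p = 0.015, with 0.0767 in the 4-array fit). All 5 probe sets of Nfkbia were called in the 10-array fit, at -0.81 to -0.50. Relb, a subunit of the non-canonical pathway, differed by -0.26 (95% interval -0.53 to 0.02), and Rela, the main activating subunit, by 0.17 (-0.07 to 0.41). Nfkb2, Nfkbie and Nfkbiz, a subunit precursor and a pair of further IκB family genes, differed by 0.12, -0.13 and -0.13. None of these 5 genes was called.

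Vcam1, which holds leukocytes on the cell surface, was the only one of the 3 adhesion and survival genes called. It read 7.92, 7.81 and 8.33 with siRNA-140, against 7.69, 8.40 and 8.28 with siRNA-96. Without the 2 arrays it fell by 0.48 on the log2 scale (limma adjusted p = 0.044, with 0.116 in the 4-array fit), and one of its other probe sets was called at -0.52 and one, at -0.12, was not. Icam1, a ligand of leukocyte integrins, and Birc3, an apoptosis inhibitor of the TNF receptor complex, differed by 0.13 and 0.22 and were not called. Icam1 averaged 2.39 in siRNA-140 arrays and 2.34 in siRNA-96 arrays, below the array medians.

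**Figure D4:**
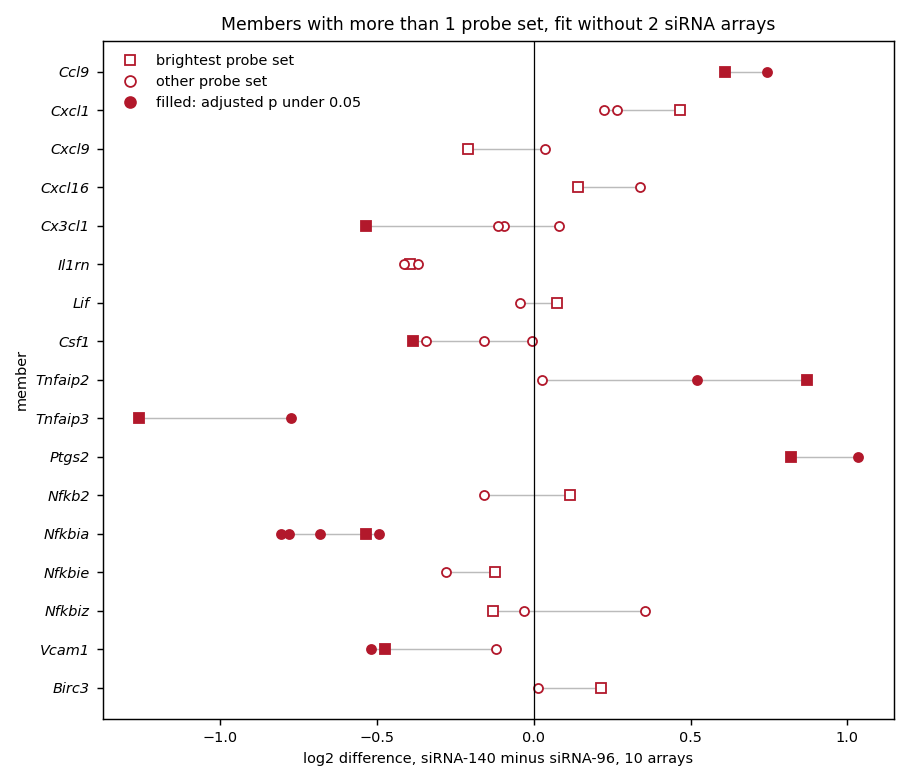
Log2 difference of siRNA-140 minus siRNA-96 in the fit without 2 siRNA arrays (horizontal) for every probe set of the genes that have more than 1 (down the page), with a square for the brightest probe set and filled symbols for an adjusted p under 0.05. All 5 probe sets of Nfkbia are filled, while Cx3cl1 and Csf1 are filled only at the brightest.

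Other genes of the pathway were read from lists made for this purpose, in the same fit without the 2 arrays. Of 26 measured receptors of cytokines and innate signals, 5 fell and 1 rose. They include Lifr, the receptor of Lif, at -1.54, Tlr3, a receptor of double-stranded RNA, at -1.23, Il1r1, the interleukin-1 receptor, at -0.62, Il6st, the shared gp130 receptor, at -0.58, and Tnfrsf1a, the TNF receptor, at 0.43. Lifr read 5.61, 5.94 and 7.30 with siRNA-140, against 5.50, 7.33 and 7.30 with siRNA-96, the same split as in Tnfaip3. Of 21 adaptors and kinases, 1 fell (Ikbke at -0.49) and 2 rose (Ikbkb at 0.40 and Tirap at 0.52). Among 14 further NF-kB subunits, inhibitors and feedback genes, 0 fell and 2 rose, Cflar, an inhibitor of death receptor signalling, at 0.68 and Ier3 at 0.53. Of 37 other chemokines and cytokines, 1 fell (Il18 at -0.44) and 4 rose, namely Il34, a further ligand of the Csf1 receptor, at 1.01, Ccl25 at 0.66, Kitl at 0.55 and Clcf1 at 0.52. Among 16 adhesion and effector genes, Tnfrsf11b, a decoy receptor of the TNF family, fell by 0.68 on the log2 scale and Selp and Plaur rose, at 0.87 and 0.69. The share called over all genes was 11.1%, and 4.82% in this fit and the 4-array fit both, as above. Called in the 4-array fit as well were Lifr and Tlr3 of the 6 receptors, 0 of the 3 adaptors and kinases, Cflar of the 2 feedback genes, Il34 of the 5 other cytokines, and all 3 adhesion and effector genes.

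Interferon response genes moved with Cxcl10, Ccl5 and Il15. Without the 2 arrays 23 of 24 measured fell and 0 rose, with a median difference of -2.45. Their mean level was 4.81, 4.96 and 6.43 with siRNA-140, against 4.93, 7.28 and 7.73 with siRNA-96. In the anti-miR arrays, not compared in level with the siRNA arrays, it was 4.89 in anti-miR-140 replicate 2 and 4.60 to 4.67 elsewhere. siRNA-96 replicate 1 was as low as siRNA-140 replicates 1 and 2, and siRNA-140 replicate 3 lay between these and the high arrays, as it did for Cxcl10. The part of these genes in the values of the cytokine genes was not tested. In the fit of the groups as labelled, limma called 0 genes of any of these lists.

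Between anti-miR-140 and anti-miR-449, where the block of miR-140 was itself not measured here, none of the 39 genes passed the adjusted test. The median size of a difference, regardless of sign, was 0.08 for the 39 genes in this comparison and 0.11 in the siRNA comparison as labelled, and for all genes 0.06 and 0.09. The differences of anti-miR-140 minus anti-miR-449 lay between -0.24 (Il6) and 0.28 (Il15), with a median of 0.02 over the 39 genes and -0.003 over all genes. limma called 0 of the 39 over 12 arrays, where 0.0% of all genes were called, and 0 of the 39 had an unadjusted p under 0.05, against 1.56% of all genes. On the 6 anti-miR arrays alone, 4 of the 39 (10.3%) had an unadjusted limma p under 0.05, against 3.47% of all genes, and all 4 had an adjusted p of 0.974. In 7 of the 39 (17.9%) the groups of 3 did not overlap, against 7.72% of all genes: Ccl7, Cxcl5, Il1a, Il15 and Il33 lay higher with anti-miR-140, and Il1b and Relb lower.

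Ccl7 read 4.68, 4.77 and 4.74 with anti-miR-140, against 4.61, 4.33 and 4.43 with anti-miR-449. The groups did not overlap, and on the 6 arrays the difference was 0.27 (95% interval 0.07 to 0.47; limma adjusted p = 0.974). Il15 read 4.60, 4.80 and 4.96 with anti-miR-140, against 4.53, 4.47 and 4.52 with anti-miR-449. All anti-miR-140 arrays were above all anti-miR-449 arrays, by 0.28 on average (95% interval 0.06 to 0.50 on the 6 arrays). Relb read 5.12, 5.19 and 5.08 with anti-miR-140, against 5.39, 5.41 and 5.20 with anti-miR-449, a difference of -0.20 (95% interval -0.39 to -0.02 on the 6 arrays). The groups failed to overlap by 0.01 between the nearest arrays. Il6 read 4.76, 4.97 and 4.85 with anti-miR-140, against 4.95, 5.27 and 5.07 with anti-miR-449, and here the groups overlapped.

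Il1a read 3.16, 3.10 and 3.0 with anti-miR-140, against 2.91, 2.99 and 2.94 with anti-miR-449. The margin between the nearest arrays was again 0.01, at a level below the array medians. Tnfaip6 read 6.05, 6.32 and 6.24 with anti-miR-140, against 6.07, 5.82 and 6.19 with anti-miR-449, and Lif read 5.18, 4.95 and 5.07 with anti-miR-140, against 4.86, 5.01 and 4.93 with anti-miR-449. Both overlapped, with differences of 0.18 (95% interval -0.08 to 0.43 on the 6 arrays) and 0.13 (-0.06 to 0.33). For Cxcl10, Ccl5 and Tnfaip3 the 6-array intervals were -0.22 to 0.38, -0.28 to 0.17 and -0.18 to 0.14. None reached, with either sign, the differences of the siRNA comparison without the 2 arrays. Cxcl10 read 2.76 to 3.29 in the anti-miR arrays, below the array medians, and Ccl5 read 4.11 to 4.44, near them. Whether a fall as large as in the siRNA comparison could be seen from these levels was not tested.

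**Figure D5:**
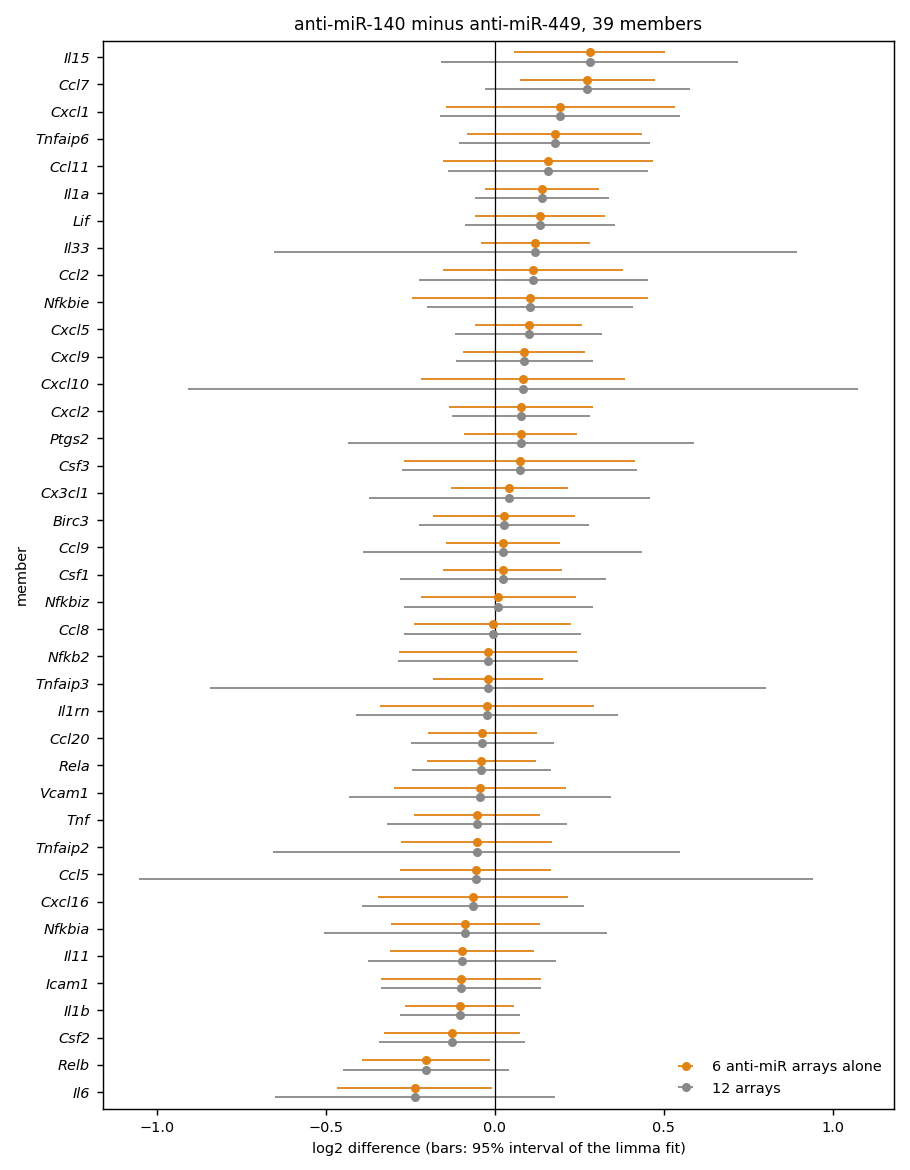
Log2 difference of anti-miR-140 minus anti-miR-449 (horizontal) for the 39 genes (down the page), with 95% intervals of the limma fit on the 6 anti-miR arrays (orange) and on all 12 arrays (grey). Points lie between -0.24 (Il6) and 0.28 (Il15), and the orange intervals of Il15, Ccl7, Relb and Il6 leave out 0.

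The difference between the responses, siRNA-140 minus siRNA-96 set against anti-miR-140 minus anti-miR-449, was tested directly. With the groups as labelled, limma called 0 of the 39 and 0.0% of all genes, and 3 of the 39 (7.69%) had an unadjusted p under 0.05, against 2.35% of all genes. Those were Cxcl10 (-1.45 ± 0.65), Il15 (-0.70 ± 0.29) and Tnf (0.43 ± 0.17), each with a limma adjusted p of 0.997. Without the 2 arrays 7 of the 39 (17.9%) were called, against 5.73% of all genes, with Cxcl10 at -2.49, Ccl5 at -1.95, Tnfaip3 at -1.24 and Il15 at -1.15 on the lower side, and Tnfaip2 at 0.92, Ptgs2 at 0.74 and Tnf at 0.64 on the higher side. Il15 was the only one of the 7 whose anti-miR groups did not overlap.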

How the data were processed

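Total RNA of 12 samples was labelled with biotin for Affymetrix arrays, per the labels' protocols. The authors deposited log2 values from RMA (per the submitters' processing notes), whose version and joint or separate use on the experiments are not given in the sources here. Leaving out 64 array controls from the 45101 probe sets of the table left 45037 for the tests. Symbols came from the platform annotation: 34945 probe sets had 1 symbol, 932 several and 9160 none, and 34741 matched RefSeq (GRCm38.p6) with 0 symbols changed.

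limma 3.58.1 in R 4.3.3 (lmFit, eBayes) fitted 4 group means over 12 arrays, and Benjamini-Hochberg adjustment ran over 45037 probe sets, with calls under an adjusted p of 0.05. The brightest probe set stood for a gene. The members, lists and left-out arrays were chosen with earlier results of these data known. All members are named, each array's values being given for those called in any fit, ranging over at least 1 log2 unit in the siRNA arrays, or among the 6 smallest p of the anti-miR comparison. From each list the text names up to 4 called genes in a direction. Other settings were the compared arrays alone, a replicate block, 2 scalings, a filter on low values, each array left out, 2 variance models, 1 value per gene, and the 2 siRNA arrays left out. The fits were tested on simulated data. Same-numbered arrays deviated together with r = 0.41, -0.241 and 0.439 in the siRNA groups and -0.014, 0.103 and -0.032 in the anti-miR groups. Differently numbered arrays had r from -0.677 to 0.493 in the siRNA groups and from -0.07 to 0.092 in the anti-miR groups, so the numbers were not taken as pairs. The number of arrays limits the precision.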

Additional observations from a re-analysis of the deposited data

How the results depend on the processing

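For siRNA-140 against siRNA-96, leaving out siRNA-140 replicate 3 and siRNA-96 replicate 1 moved the calls most: 4043 probe sets and 12 of the 39 genes on the other 10 arrays, 1743 and 6 on the 4 siRNA arrays alone, against 0 and 0 as labelled. On the same 10 arrays, chosen after seeing the data, a further quantile normalization called 4404 probe sets and median centring 3848, each with 12 of the 39 genes, which were the same 12 with the same signs. The difference of the responses had 1985 probe sets and 7 genes on the 10 arrays, 2247 and 8 after quantile normalization, and 1850 and 7 after centring. Leaving out 1 array at a time gave 0 to 36 probe sets and 0 to 1 genes for the siRNA comparison (36 without siRNA-96 replicate 1, with Cxcl10, and 25 without siRNA-96 replicate 2), and 0 to 1 probe sets for the difference. The replicate block gave 0 called probe sets and 0 of the 39 genes in each comparison. The other settings on all arrays, the filter on low values included, also called 0 by limma. Counts at an unadjusted limma p under 0.05 in the siRNA comparison have totals that differ between settings. On all 12 arrays they ran from 904 of 18193 genes, with probe sets averaged per gene, to 3763 of 45037 probe sets, with array weights. With the 2 siRNA arrays left out they were 9243 of 45037 probe sets on the 10 arrays and 6565 on the 4 siRNA arrays. anti-miR-140 against anti-miR-449 had 0 calls in every setting run. No called value changed sign; among uncalled values of single genes, 68 of 922 did in the siRNA comparison and 38 of 926 in the anti-miR comparison. Genes below the array medians, such as Il1a, Cxcl2 and Icam1, lie where signal over background limits what the arrays can show. Cxcl10 lay there too in siRNA-140 replicates 1 and 2, siRNA-96 replicate 1 and all anti-miR arrays. Il15 lay there in the same siRNA arrays (3.37, 3.69 and 3.63), where Ccl5 lay close to the medians (3.93, 4.06 and 4.17). The low side of the siRNA difference is therefore at that level for Cxcl10 and Il15, and near it for Ccl5.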
